A study of Homo sapiens with 6 samples.

Results

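The 10 genes described here serve protein folding in the endoplasmic reticulum (ER) or the unfolded protein response (UPR): HSPA5, HYOU1, DNAJB9, HSP90B1, CALR, CANX, PDIA4, PDIA6, XBP1 and HERPUD1. They were chosen by name, as the loci of the deposited table whose gene names include one of them, which gave 10 of 117001 loci, and as 10 of the 23663 genes of the per-library assemblies. HEK293 is a human cell line derived from embryonic kidney. Cells cultured at 37°C were taken at passaging, and 3 control samples were left untreated while 3 heat shock samples spent 30 minutes at 45°C, in a water bath. The labels do not give the time of RNA collection, which the study puts at 30 minutes after heat shock. Total RNA depleted of ribosomal RNA was sequenced, with 1 library from each sample. The labels name triplicates and do not say whether these came from separate cultures, so p-values measure only the spread between these samples.

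The ER folds secreted and membrane proteins with its own Hsp70, Hsp90, lectin chaperones and disulfide isomerases. When unfolded proteins gather in the ER, the sensors IRE1, PERK and ATF6 raise the transcription of these chaperones, which is the UPR, and IRE1 cuts a short intron out of XBP1 RNA so that it encodes an active transcription factor. Heat also unfolds proteins in the cytosol, where the heat shock factor HSF1 acts on another set of chaperone genes. The comparison therefore asks whether the ER set moved with the cytosolic set after heat shock.

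The letters that IRE1 removes from XBP1 are shown because the assemblies hold forms with and without them. The annotation of the files (hg19) has an XBP1 form of 5 exons that keeps this segment of 26 bases and a form of 6 exons that lacks it. The segment lies in the coding exons of XBP1 on the minus strand, at chr22:29192112-29192137, and it is printed from GRCh37 in capitals with 15 bases on either side.
XBP1 segment: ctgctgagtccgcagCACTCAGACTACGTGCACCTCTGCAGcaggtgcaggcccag

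The promoters of the members were searched on both strands for the elements known to be bound in the UPR, in the RefSeq sequences of GRCh38.p14 from 250 bases before to 50 bases after each gene start. All 10 members and all 10 cytosolic chaperones of the contrast had such a sequence. The ER stress element ERSE was searched as CCAAT and CCACG with any 9 bases between them. It was present in 5 of the 10 members, in 0 of the 10 cytosolic chaperones and in 0.0806% of all 27305 promoters. The element ERSE-II, which is ATTGG and CCACG with any 1 base between them, was present in 2 members and in 0.0549% of all promoters. The element UPRE, TGACGTGG, was present in HYOU1 and in 0.795% of all promoters, and in HYOU1 it overlaps a match of ERSE-II. The heat shock element was searched as GAA, TTC and GAA with any 2 bases between each. It was present in 0 members, in 0.487% of all promoters and in the cytosolic genes HSPA8 and DNAJA1. The windows of DNAJB1, HSPA1B and HSPA1A, the cytosolic genes with the largest fold changes below, held no match. Other forms of the element were not searched, so the lack of a match does not show that a gene lacks the element. The matches of ERSE and ERSE-II in the members follow, read along the element with the match in capitals and 5 bases on either side. They show which members carry the letters, and a match is not evidence of binding in these cells.
HSPA5, ERSE, chr9:125241391-125241409: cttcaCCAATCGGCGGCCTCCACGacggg
HSP90B1, ERSE, chr12:103930216-103930234: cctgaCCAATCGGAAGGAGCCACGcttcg
HSP90B1, ERSE, chr12:103930321-103930339: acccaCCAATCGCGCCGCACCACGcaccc
CALR, ERSE, chr19:12938384-12938402: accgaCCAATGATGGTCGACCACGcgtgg
CANX, ERSE, chr5:179698778-179698796: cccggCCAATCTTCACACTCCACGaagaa
XBP1, ERSE, chr22:28800603-28800621: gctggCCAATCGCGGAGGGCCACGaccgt
HYOU1, ERSE-II, chr11:119057380-119057390: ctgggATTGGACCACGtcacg
HYOU1, ERSE-II, chr11:119057274-119057284: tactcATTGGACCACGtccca
HERPUD1, ERSE-II, chr16:56932025-56932035: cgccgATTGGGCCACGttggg

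The matches of HSPA5 and XBP1 lie closest to the gene start, ending 48 and 34 bases before it. No match of these letters was found in the windows of DNAJB9, PDIA4 and PDIA6. Each window surrounds the RefSeq gene start in GRCh38, for members and cytosolic chaperones alike. Whether the transcripts measured here begin at that start was not examined, so a missing match may concern another start site.

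The libraries stood apart before any gene was compared. The unit is FPKM, fragments scaled by transcript length and by the mapped fragments of the library, as the authors' assembler Cufflinks gave it for each transcript. For the genes above 10 FPKM in all libraries, 1016 in number, the library-wide factor was 0.935, 0.434 and 0.956 in control 1, 2 and 3 and 2.13, 2.31 and 0.487 in heat shock 1, 2 and 3. Values divided by this factor are called scaled FPKM. Relative depth, read from the ratio of coverage to FPKM, ran from 1 to 2.03. Transcripts without a strand numbered 141632 to 194489 in control 1, control 2 and heat shock 3 and 17304 to 45600 in control 3, heat shock 1 and heat shock 2, and values within each of these classes are given below. Of the marker genes, VIM was at 197 to 402 scaled FPKM and KRT18 at 14.9 to 34.4, while PTPRC, ALB, COL1A2 and HBB were at 0.793 or less in every library and INS was at 3.63 in control 1 and listed at 0 in the others.

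None of the 10 ER and UPR genes passed the test after heat shock. Their fold changes on log2(scaled FPKM + 1), heat shock over control, ran from -0.31 for PDIA6 to 0.68 for HSP90B1 with a median of -0.06, beside a median of -0.25 over the 14173 genes tested. Abundant genes, the 2694 whose mean reached 10 scaled FPKM, had a median of -0.03, and with this minimum the median of the members left was -0.12, so that the members lay above the median of all genes and below that of abundant genes. limma with Benjamini-Hochberg adjustment over all these genes called 0 members higher and 0 lower at an adjusted p under 0.05, where it called 0% of all genes in either direction. At an unadjusted p under 0.05 it held 0 members, beside 0.642% of all genes that were higher and 2.48% that were lower. The adjusted p of the members ran from 0.899 to 0.987. In RNA from a whole culture, fewer cells that express a gene and less of its RNA per cell cannot be told apart.

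As deposited, every member was higher in heat shock 1 and heat shock 2 than in all 3 control libraries, and 9 of the 10 were lower in heat shock 3 than in control 1 and control 3. The groups thus overlapped for all 10, beside 3.79% of all genes that were higher in all heat shock libraries and 2.21% that were lower. In limma 0 members passed the adjusted threshold, beside 0.0151% of all genes higher and 0.00754% lower, and 0 were under an unadjusted p of 0.05, beside 2% higher and 1.76% lower. For each member the highest library exceeded the lowest by 4.42 to 17.1 times. After scaling the median of this ratio over the members fell from 5.74 to 1.52. The deposited table, which holds 1 pooled FPKM for each group as the authors' value, gave the 10 member loci 3.87 to 4.66 times more FPKM after heat shock. The 4.66 belongs to the locus of HSP90B1, which also names the microRNA MIR3652. Its pooled control FPKM of 167 was far above the 14.1 to 32.5 FPKM of HSP90B1 in the control libraries as deposited, so the pooled value and the library values do not measure the same thing. For all 10 members the pooled heat shock FPKM also exceeded that of every heat shock library as deposited. For CALR it was 246, against 119, 117 and 25.4 in heat shock 1, 2 and 3. The pooled ratios of the members are thus not ratios of these library values. The 2224 named loci above 10 pooled FPKM in control had a median ratio of 4.49, with quartiles of 4.19 and 4.78. Between these quartiles lay 7 of the member loci, and HSPA5, HYOU1 and XBP1 lay below the lower one. Among the cytosolic chaperones the same pooled ratio was 19.6 for DNAJB1 and 20.6 for HSPA1B, and 2.86 to 5.76 for the other 8. The 2.86 belongs to HSPA1A, whose pooled FPKM was only 0.446 in control and 1.28 in heat shock. In the control libraries as deposited HSPA1A was at 3.39 to 5.00 FPKM, so its pooled ratio is a poor measure of its change.

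**Figure D1:**
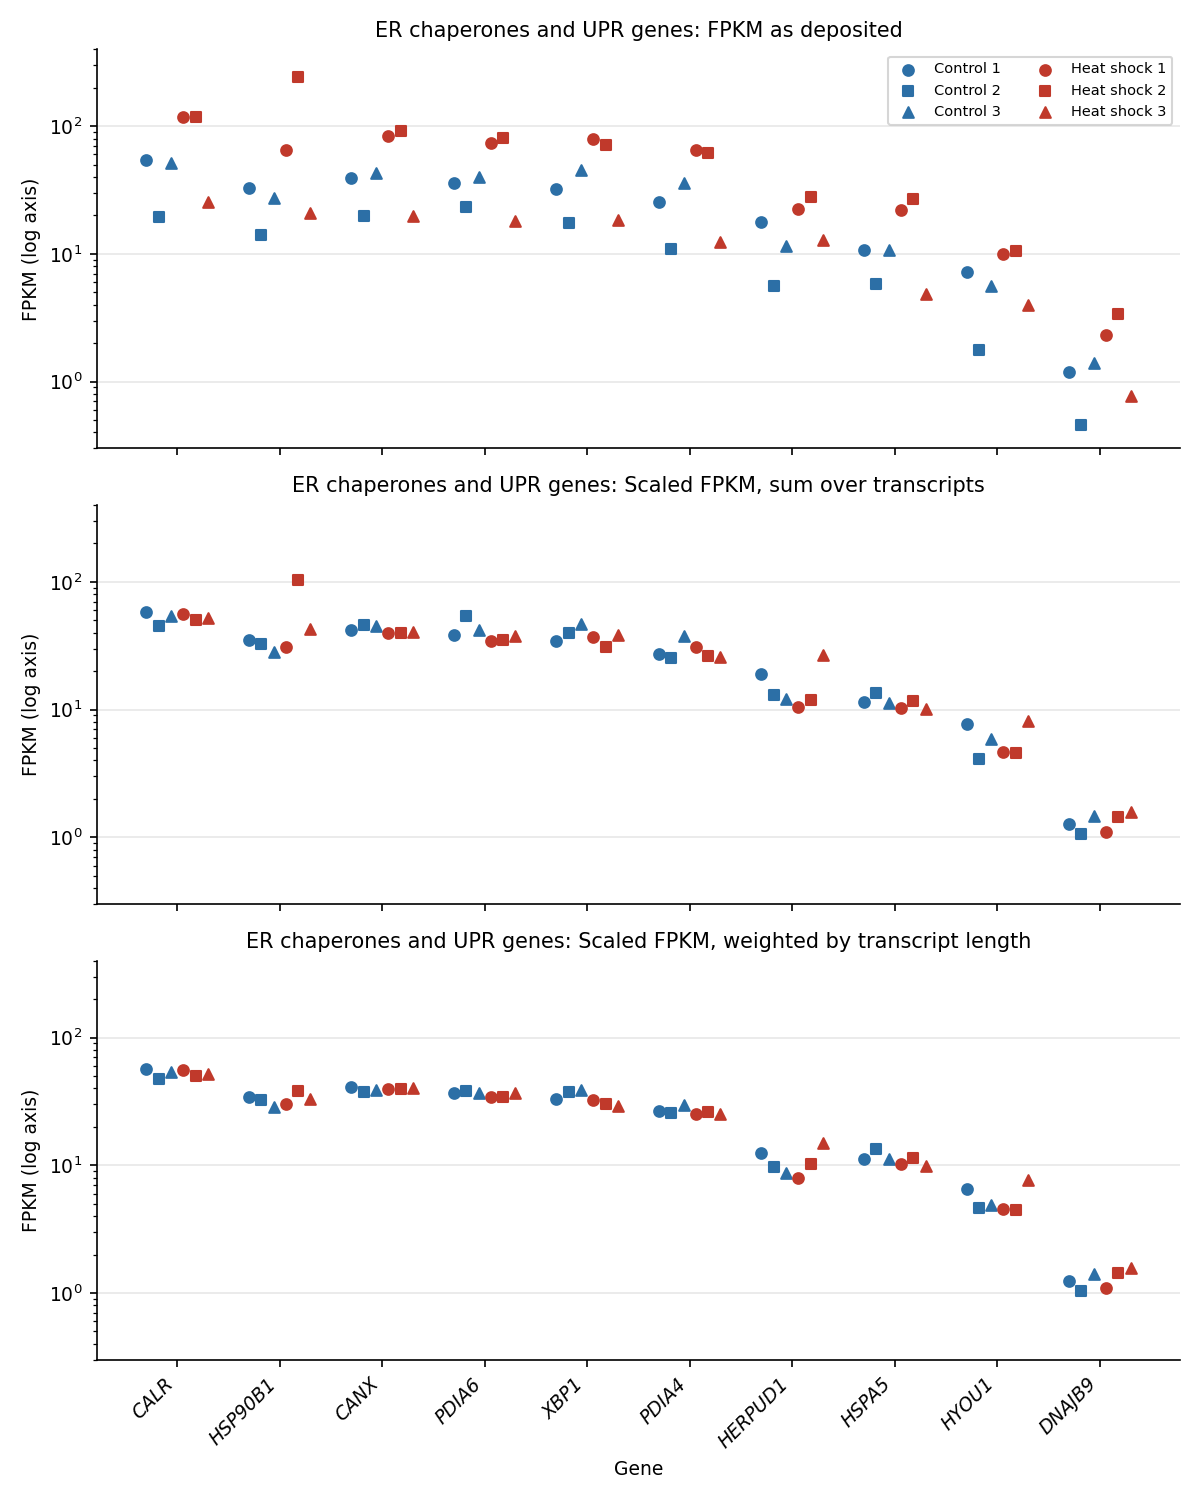
FPKM (log axis) of the 10 ER and UPR genes in each library, with control libraries in blue and heat shock libraries in red: as deposited (top), scaled and summed over transcripts (middle), and scaled and weighted by transcript length (bottom). As deposited, heat shock 1 and 2 lie above all control libraries for all 10 genes. In the middle panel the groups overlap for 8 of the 10, and CANX and PDIA6 are lower, as for 5.21% of all genes. In the bottom panel the groups overlap for all but XBP1, which is lower, as for 5.45% of all genes.

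A gene's FPKM was summed over its transcripts, and all 10 members had at least 1 assembled transcript besides the annotated ones in some library. A short partial transcript carries a high FPKM for the fragments it holds, so a sum that includes one exceeds the level of the whole gene. A second measure was therefore added after the values were seen, in which the FPKM of each transcript was weighted by its length and the sum divided by the length of the longest annotated transcript. By this measure 0 members were higher and 1 was lower at an unadjusted p under 0.05 in limma, beside 0.285% and 2.26% of all genes, the median ratio of the highest to the lowest library over the members was 1.33, and their median log2 fold change was 0.01. It is called the length-weighted FPKM below.

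HSPA5, the Hsp70 of the ER known as BiP, is encoded on the minus strand at chr9:127997127-128003666 (hg19) with 8 annotated exons. It was at 11.5, 13.5 and 11.2 scaled FPKM in control 1, 2 and 3 and at 10.3, 11.6 and 10.0 in heat shock 1, 2 and 3. The groups overlapped, with the highest value in control 2 and the lowest in heat shock 3. The mean was 12.1 ± 1.26 in control and 10.6 ± 0.826 in heat shock (SD, n = 3 each). The log2 fold change was -0.17 ± 0.17 (SE), with a limma 95% interval of -0.57 to 0.24 on the log2(scaled FPKM + 1) scale. Within the libraries with many strandless transcripts the log2 difference was -0.29 and within those with few it was -0.03.

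HYOU1, an ER chaperone of the Hsp110 type that exchanges the nucleotide of HSPA5, lies at chr11:118914896-118927925. It was at 7.75, 4.07 and 5.88 scaled FPKM in the control libraries and at 4.68, 4.56 and 8.20 in the heat shock libraries. The groups overlapped, and the 95% interval of its log2 fold change ran from -0.81 to 0.76. Its difference was 0.47 (log2) within the libraries with many strandless transcripts and -0.29 within those with few, so the sign differed between the classes. DNAJB9, a J-domain partner of HSPA5 also called ERdj4, lies at chr7:108210189-108215294. It had the lowest level of the members, with 1.26, 1.05 and 1.48 scaled FPKM in control and 1.09, 1.45 and 1.58 in heat shock. The mean coverage of its transcript, as Cufflinks estimated it, was 0.863 to 4.35 per library, the thinnest of the 10, and the 95% interval of its log2 fold change was -0.64 to 0.78. On log2(scaled FPKM + 1) this interval understates the range of FPKM ratios at so low a level, and a change inside it was not detectable at this depth and number of libraries.

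HSP90B1, the ER Hsp90 also called GRP94, had the largest value of any member in 1 library. It lies at chr12:104324112-104341708 with 18 exons, and the locus of the table also names the microRNA MIR3652. Its summed scaled FPKM was 34.8, 32.5 and 28.4 in control 1, 2 and 3 and 30.8, 104 and 42.8 in heat shock 1, 2 and 3. Heat shock 2 stood above all others, while heat shock 1 lay among the controls. In heat shock 2 an assembled transcript of 6 exons and 828 bases at the 3′ end of the gene carried 92.8 scaled FPKM and the annotated transcript carried 11.3. In heat shock 3 an assembled transcript of 11 exons carried 25.2 and the annotated one 17.6, and in heat shock 1 these values were 7.86 and 22.9. None of the control libraries listed an assembled transcript of HSP90B1.

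By length-weighted FPKM, HSP90B1 was at 33.9, 32.2 and 28.7 in control and 30.1, 37.9 and 33.0 in heat shock. The groups overlapped. The log2 fold change was 0.68 ± 0.44 (SE) for the sum and 0.08 ± 0.11 for the length-weighted value, and neither passed the test. Without heat shock 2 the change of the sum was 0.18. With annotated transcripts alone the sign turned, to -0.88, with an adjusted p of 0.972 in limma.

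CALR and CANX are the lectin chaperones calreticulin and calnexin, which hold glycoproteins while they fold. CALR (chr19:13049414-13055304) was the most abundant member, at 58.3, 44.8 and 53.6 scaled FPKM in control and 55.9, 50.7 and 52.2 in heat shock. All 3 heat shock values lay within the range of the controls. The mean was 52.2 ± 6.88 in control and 52.9 ± 2.67 in heat shock (SD, n = 3 each), and the 95% interval of the log2 fold change was -0.30 to 0.35.

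CANX (chr5:179125930-179158639) was at 41.8, 45.8 and 45.0 scaled FPKM in control and 39.7, 40.0 and 40.7 in heat shock. All heat shock libraries were lower than all control libraries, a pattern shown by 5.21% of the genes tested. The log2 fold change was -0.14 ± 0.10 (SE), the adjusted p in limma was 0.899, and the exact permutation test, two-sided, gave p = 0.1, which is the smallest that 3 against 3 libraries allow. In control 2 an assembled transcript of 2 exons at the 3′ end carried 25.1 of the 45.8 scaled FPKM. By length-weighted FPKM the groups overlapped, at 40.8, 37.5 and 38.9 in control and 39.3, 39.5 and 40.1 in heat shock.

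PDIA4 and PDIA6 are protein disulfide isomerases of the ER. PDIA4 (chr7:148700154-148725782) was at 27.2, 25.1 and 37.4 scaled FPKM in control and 30.8, 26.5 and 25.6 in heat shock. The groups overlapped, and the change was -0.09 ± 0.19 (log2, SE). PDIA6 (chr2:10923517-10952960) was at 38.6, 54.1 and 41.9 in control and 34.5, 34.8 and 37.4 in heat shock. All heat shock libraries were lower, as for 5.21% of all genes, and the exact permutation p was 0.1.

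The change of PDIA6, -0.31 ± 0.16 (log2, SE), was the lowest of the members and did not pass the test, with an adjusted p of 0.899 in limma. Each control library listed an assembled transcript of PDIA6 beside the annotated one, at 20.6, 40.6 and 24.2 scaled FPKM, and no heat shock library did. By length-weighted FPKM it was at 36.8, 37.9 and 36.5 in control and 34.3, 34.5 and 36.9 in heat shock, and the groups overlapped with a change of -0.07. With annotated transcripts alone the sign turned, to 1.09, with an adjusted p of 0.472 in limma.

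XBP1, the transcription factor made active by IRE1, lies at chr22:29190548-29196560. It was at 34.3, 39.9 and 47.1 scaled FPKM in control and 37.0, 30.6 and 38.1 in heat shock. The groups overlapped, and the change was -0.19 ± 0.17 (log2, SE). By length-weighted FPKM XBP1 was at 33.2, 37.3 and 38.9 in control and 32.1, 30.0 and 28.9 in heat shock, so that all heat shock libraries were lower, beside 5.45% of all genes by this measure. That change was -0.26 ± 0.09, with a limma unadjusted p of 0.0306 and an adjusted p of 0.869, and it was the 1 member at an unadjusted p under 0.05 by this measure, beside 2.26% of all genes that were lower. Within the libraries with many strandless transcripts the summed difference was 0.04 and within those with few it was -0.47.

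The form of XBP1 could be read in part from the assemblies. The 6-exon form, in which the printed segment is removed, had 17.0, 3.54 and 6.06 FPKM as deposited in control 1, 2 and 3 and 12.4, 70.9 and 1.79 in heat shock 1, 2 and 3. The 5-exon form, which keeps the segment, had 15.0 FPKM in control 1 and was listed at 0 in the other 5 libraries. The share of the 6-exon form among these annotated forms was therefore 53.1% in control 1 and 100% in the 5 others, and the mean difference of 15.6 percentage points rested on control 1. The exact permutation p, two-sided, was 1. With the 5 others tied it could take no other value, so it tells nothing about heat shock. Without control 1 the difference was 0.

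The 0 of the 5-exon form does not show that the segment was absent from the RNA. In control 2, heat shock 1 and heat shock 3 assembled transcripts that keep the segment carried 13.8, 66.4 and 16.8 FPKM. In control 3 an assembled transcript that lies wholly 3′ of the segment carried 39.0 FPKM. Among all XBP1 transcripts the 6-exon form held 53.1%, 20.4% and 13.4% in control and 15.7%, 100% and 9.66% in heat shock, and the exact permutation p of the difference was 0.9. Heat shock 2 was the highest library and heat shock 3 the lowest, so that the groups overlapped. The assignment of fragments between forms that differ by 26 bases is Cufflinks' own, and the reads that cross the segment were not analysed here.

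**Figure D2:**
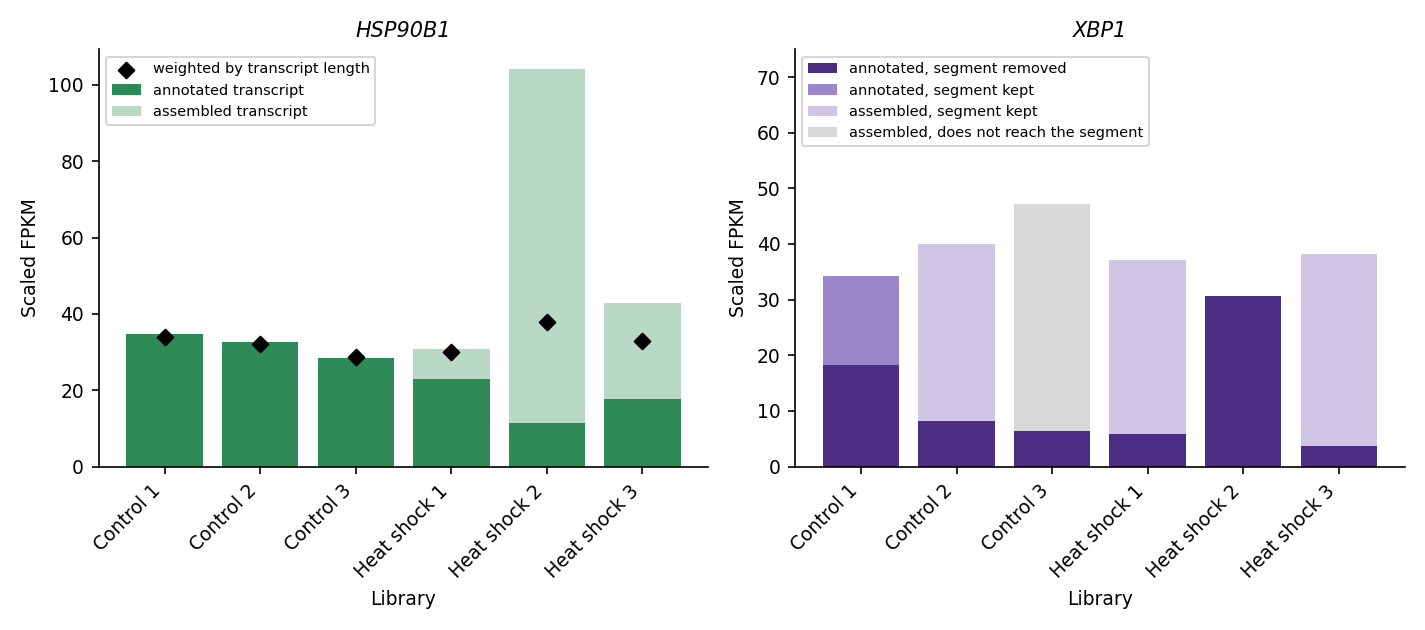
Scaled FPKM of the transcripts of HSP90B1 (left) and XBP1 (right) in each library, stacked by kind of transcript; diamonds give the length-weighted value of HSP90B1. In heat shock 2 the assembled transcript of HSP90B1 carried 92.8 of 104 scaled FPKM, and the XBP1 form without the segment ran from 3.68 scaled FPKM in heat shock 3 to 30.6 in heat shock 2.

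HERPUD1, an ER membrane protein that serves the degradation of ER proteins and is a target of the UPR, lies at chr16:56965748-56977793. It was at 19.0, 13.0 and 12.1 scaled FPKM in control and 10.6, 12.0 and 26.5 in heat shock. Heat shock 3 was the highest library and heat shock 1 the lowest. The change was 0.06 ± 0.38 (log2, SE), and without heat shock 3 it was -0.32. Within the libraries with many strandless transcripts it was 0.72 and within those with few -0.10. In control 1 and heat shock 3 all of its FPKM lay in assembled transcripts, which held at least 21.5% of it in every library.

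The cytosolic chaperones, set beside the ER genes, included those with the largest fold changes of both lists. DNAJB1, a cytosolic J-domain protein, was at 7.83, 11.2 and 9.60 scaled FPKM in control and 56.8, 50.2 and 69.8 in heat shock. Its groups did not overlap, its log2 fold change was 2.51 ± 0.19 (SE), and its p was the lowest of all 14173 genes. Even so its adjusted p in limma was 0.151, and over the 19 alternatives it ran from 0.0489 to 1.00, with annotated transcripts alone giving a fold change of -0.0011. HSPA1B, an inducible Hsp70, was at 10.9, 15.2 and 9.99 in control and 40.7, 43.2 and 47.1 in heat shock, with a log2 fold change of 1.80 ± 0.19 and an adjusted p of 0.209. HSPA1A, its near-identical copy, was at 5.34, 7.82 and 5.04 in control and 14.1, 13.5 and 14.1 in heat shock, and the split of reads between these copies is uncertain.

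HSPA8, the constitutive cytosolic Hsp70, had a mean of 98.1 ± 3.78 scaled FPKM in control and 123 ± 4.83 in heat shock (SD, n = 3 each), a log2 fold change of 0.33 ± 0.09 with groups that did not overlap. The J-domain protein DNAJA1 had a log2 fold change of 0.41 and the Hsp110 HSPH1 of 0.35, also without overlap. For HSP90AA1, HSP90AB1 and HSPA4 the groups overlapped, with log2 fold changes of 0.14, -0.02 and -0.12. The co-chaperone STIP1 was lower in all heat shock libraries, at -0.31, and by length-weighted FPKM its groups overlapped.

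In the cytosolic list 6 of 10 genes were higher in all heat shock libraries than in all control libraries, beside 1.70% of all genes. Of the 10 ER members 0 were. Both lists were chosen with earlier results of these data known, so these counts describe the lists and are not a test. At an unadjusted p under 0.05 in limma 5 cytosolic genes were higher, beside 0.642% of all genes, and 0 passed the adjusted threshold. The median log2 fold change was 0.34 for the cytosolic list and -0.06 for the ER members, a difference of -0.40. By length-weighted FPKM these medians were 0.23 and 0.01, and 7 cytosolic genes were higher in all heat shock libraries, beside 1.28% of all genes, with HSP90AA1 and HSP90AB1 among them and DNAJA1 not. With annotated transcripts alone the difference between the lists was -0.11. A library's factor shifts the log2 values of both lists alike, apart from the added 1, so scaling could barely move the difference between the lists. It lay between -0.47 and -0.40 under the 5 ways of scaling, which is therefore no separate support. In each library the median log2(scaled FPKM + 1) of the members minus that of the cytosolic list was 0.64, 0.54 and 0.84 in control and -0.63, -0.69 and -0.81 in heat shock. Over the libraries the members' median stayed between 4.88 and 5.07, while that of the cytosolic list was 4.23 to 4.35 in control and 5.57 to 5.83 in heat shock, with DNAJB1 and HSPA1B below HSPA4 and STIP1 in all control libraries and above them in all heat shock libraries. Without these 2 genes, chosen after their values were seen, the difference was -0.04, -0.05 and 0.07 in control and 0.03, -0.05 and -0.19 in heat shock, so that the groups overlapped, and the difference between the lists' median fold changes was -0.29. Within the libraries with many strandless transcripts the median changes were 0.32 for the cytosolic list and 0.04 for the members, and within those with few they were 0.32 and -0.15.

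**Figure D3:**
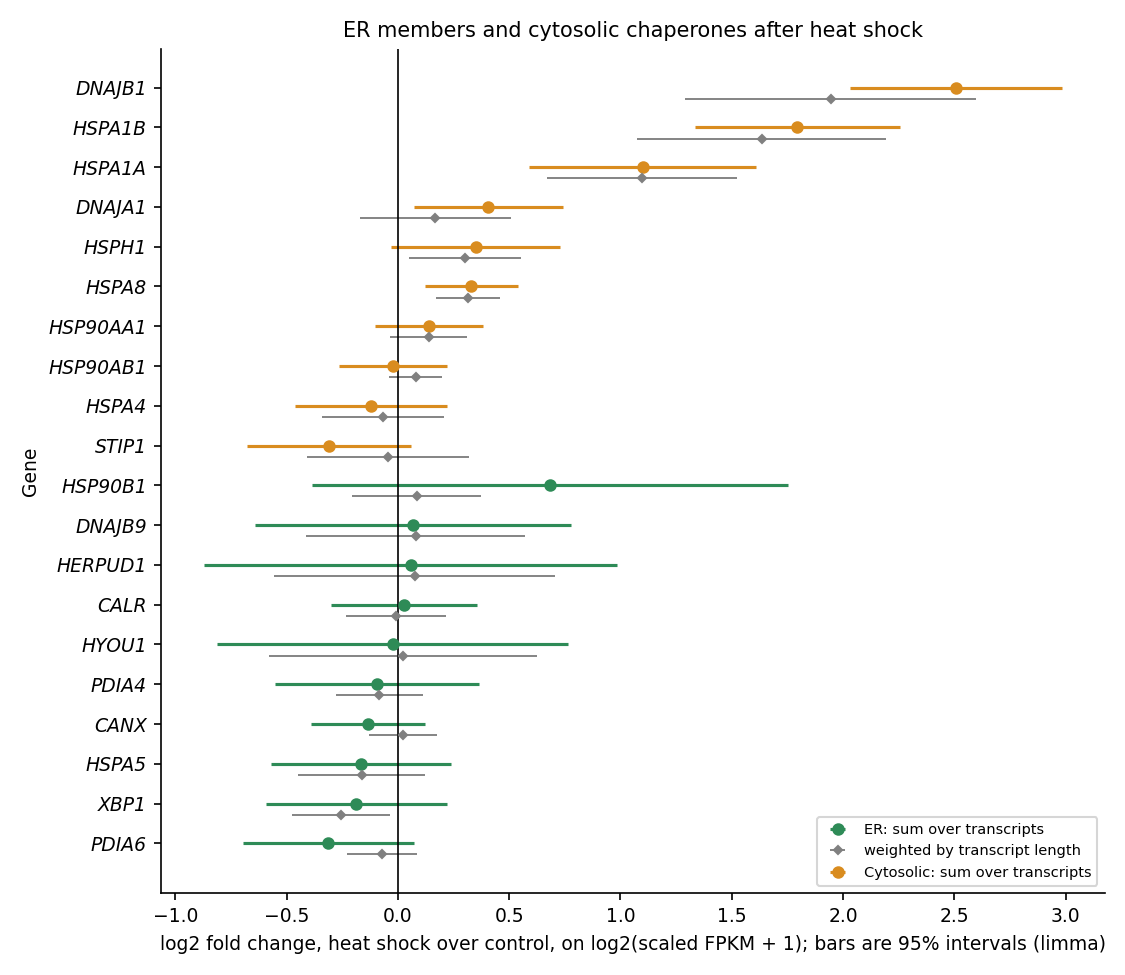
log2 fold change of each ER member (green) and cytosolic chaperone (orange), heat shock over control, on log2(scaled FPKM + 1), with 95% intervals from limma; grey diamonds give the length-weighted FPKM. The intervals of all 10 ER members reach 0 for the summed values, while DNAJB1, HSPA1B and HSPA1A lie at 2.51, 1.80 and 1.10.

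Ratios between relatives within a library need no scaling. Between 6 pairs, chosen after the values were seen, the ratio of HSPA5 to HSPA8 was 0.115, 0.135 and 0.119 in control and 0.0858, 0.0897 and 0.0827 in heat shock. The groups did not overlap, and the mean ratio in heat shock was 0.700 of that in control. HSPA5 to HSPA1B was 1.06, 0.889 and 1.12 in control and 0.254, 0.268 and 0.213 in heat shock. DNAJB9 to DNAJB1 was 0.161, 0.0944 and 0.154 in control and 0.0192, 0.0289 and 0.0226 in heat shock. Each of these 3 pairs gave an exact permutation p of 0.1, the smallest possible, and an adjusted p of 0.2 over the 6 pairs.

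For the ER and cytosolic Hsp90 genes the groups overlapped. The length-weighted ratio of HSP90B1 to HSP90AB1 was 0.165, 0.170 and 0.143 in control and 0.140, 0.180 and 0.160 in heat shock, with an exact permutation p of 1. From the summed FPKM the same ratio was 0.471 in heat shock 2 and 0.123 to 0.195 in the other libraries. The ratio of HSP90B1 to HSP90AA1 gave an exact permutation p of 0.4 and that of HYOU1 to HSPH1 of 0.2, and their groups overlapped.

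**Figure D4:**
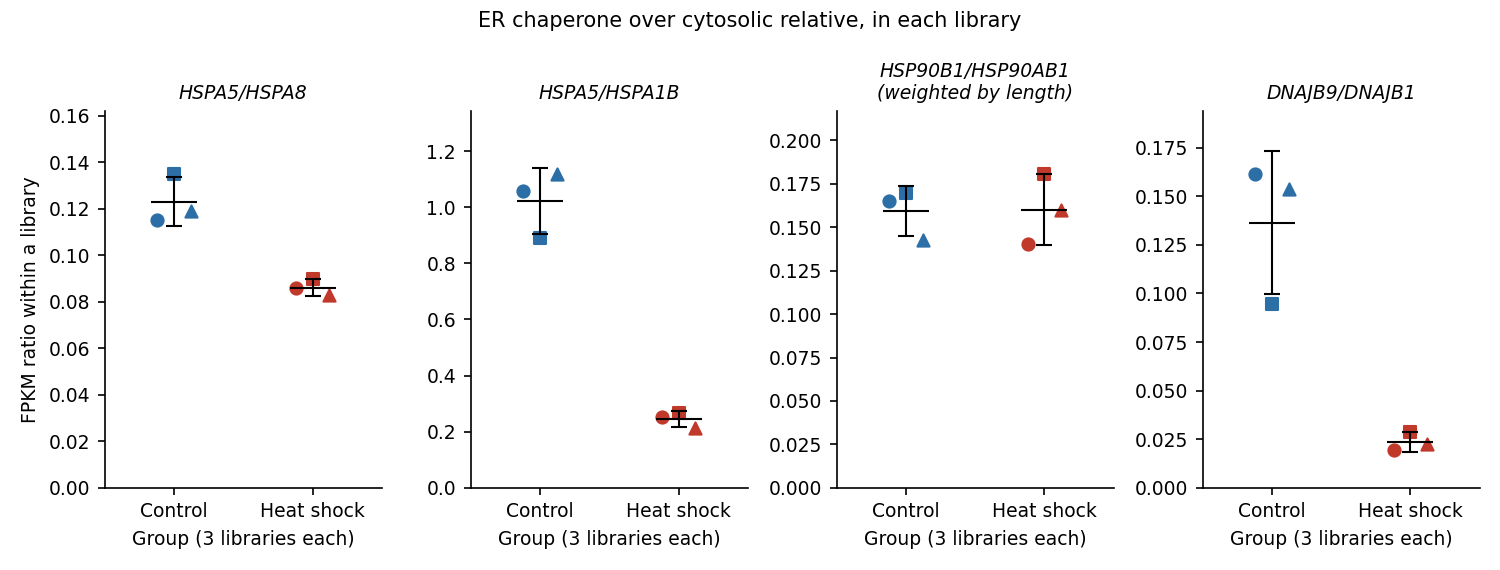
FPKM of an ER chaperone divided by that of a cytosolic relative in the same library, for 4 pairs, with 1 point per library and the mean and SD of each group of 3 libraries in black. The ratios of HSPA5 to HSPA8, HSPA5 to HSPA1B and DNAJB9 to DNAJB1 are lower in all heat shock libraries, and the length-weighted ratio of HSP90B1 to HSP90AB1 overlaps.

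The wider ER and UPR genes were read from 3 lists. Of 20 further ER folding factors, which include other disulfide isomerases, J-domain proteins and glycan-processing enzymes, all 20 were tested, 0 passed and the groups overlapped for all 20, with a median log2 fold change of -0.01. Of 14 genes of ER-associated degradation and translocation 13 were tested, 0 passed and the groups overlapped for all 13, with a median of -0.12. These are the summed values. By length-weighted FPKM 1 of the 20 folding factors, GANAB, was lower in all heat shock libraries. In the second list 1 of 12 genes was lower, and 5.45% of all genes were. As deposited 1 folding factor, PDIA5, was higher, beside 3.79% of all genes. Of 14 sensors and targets of the UPR and the integrated stress response 13 were tested, 0 passed the adjusted threshold, 1 was higher at an unadjusted p under 0.05, and the median was -0.09. Among all genes 0% passed the adjusted threshold, an unadjusted p under 0.05 was reached by 0.642% that were higher and by 2.48% that were lower, and 1.70% were higher and 5.21% lower in all heat shock libraries than in all control libraries. The median over all genes was -0.25, and over the abundant ones it was -0.03.

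In the last list 1 of 13 genes was higher in all heat shock libraries, beside 1.70% of all genes, and 2 were lower, beside 5.21%. PPP1R15A, the phosphatase subunit GADD34 that lets translation resume, was at 4.74, 6.16 and 5.02 scaled FPKM in control and 32.9, 10.5 and 10.3 in heat shock, a log2 fold change of 1.39 ± 0.46 (SE) with an adjusted p in limma of 0.899. By length-weighted FPKM its groups overlapped, at 6.32, 7.98 and 5.05 in control and 7.91, 5.12 and 11.6 in heat shock. CHAC1, an enzyme that degrades glutathione and a target of ATF4, was lower in all heat shock libraries, at -0.69 ± 0.30 with an adjusted p of 0.899 in limma. By length-weighted FPKM its groups overlapped, at 5.37, 4.10 and 4.21 in control and 2.93, 1.76 and 5.08 in heat shock. ATF6B, a relative of the sensor ATF6, was lower at -0.64 ± 0.30 with the same adjusted p, and by length-weighted FPKM its groups did not overlap either. ATF4, the most abundant gene of the list and chosen after its values were seen, stayed between 301 and 326 scaled FPKM in all 6 libraries.

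The order of the members by mean scaled FPKM over the 6 libraries was CALR (52.6), HSP90B1 (45.6), CANX (42.2), PDIA6 (40.2), XBP1 (37.9), PDIA4 (28.8), HERPUD1 (15.5), HSPA5 (11.4), HYOU1 (5.86) and DNAJB9 (1.32). By length-weighted FPKM HSP90B1 was at 32.6 and came after CANX (39.3), PDIA6 (36.1) and XBP1 (33.4), and HERPUD1 at 10.7 came after HSPA5 at 11.3. XBP1 exceeded PDIA4, HSPA5 exceeded HYOU1 and HYOU1 exceeded DNAJB9 in all 6 libraries. The neighbours HSP90B1 and CANX kept this order in 2 of 6 libraries and PDIA6 and XBP1 in 3 of 6, so those neighbours were not separated beyond their spread. HSPA5 thus ranked below 7 of the members by the summed values and below 6 by the length-weighted ones.

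Over the 6 libraries the genes whose log2 scaled FPKM most resembled that of HSPA5, among 2693 genes with a mean of at least 10, were ATG3 (Pearson r = 0.97), UBE2V2 (0.96) and IK (0.95). For XBP1 they were SYT15 (0.99), COPS7B (0.98) and IMPDH1 (0.97). None of these 6 genes is a member, and the values share the same 6 libraries and the same scaling.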

How the data were processed

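Libraries were grouped by the sample labels. Per the labels and the study's methods, read quality was examined in FastQC 0.10.1 and reads were trimmed (Trimmomatic 0.3.0). TopHat2 served for alignment to hg19, and Cufflinks 2.0.2 for assembling every library on its own. The deposited FPKM is an attribute of each assembled transcript, and the deposited table holds 1 FPKM per group and locus from Cuffdiff, used as the authors' pooled values. Its columns of fold change and test results were not used. Count models were not run, since the values are not counts.

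FPKM was summed per gene over annotated transcripts and the assembled ones of the same group. Where a group held several genes, an assembled transcript went to the gene with which it shared an intron, or else exons. Earlier handling of these data counted it to no gene, which dropped transcripts of HSP90B1 and HERPUD1. Scaled FPKM is FPKM over a median-of-ratios factor of the library. Genes with a mean of at least 1 scaled FPKM were fitted in limma 3.58.1 (lmFit, eBayes with trend, R 4.3.3) on log2(scaled FPKM + 1), a scale that understates changes of low genes, with Benjamini-Hochberg adjustment. Single values were compared by the exact permutation test, whose smallest two-sided p is 0.1 here. The fit was also run on simulated data, and no result here rests on that run.

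The members and lists were chosen with earlier results of these data known. Named were the 10 members, 10 cytosolic chaperones, called genes of 3 further lists and up to 3 per direction in each whose groups did not overlap, and the 3 genes most like HSPA5 and XBP1. Alternatives were other scalings (none, all tested genes, TPM, genes above 50 FPKM), a pseudocount of 0.1, no minimum or a minimum of 10, eBayes without trend, annotated transcripts alone, the replicate number as a block, a term for the 3 libraries with most strandless transcripts, and leaving out each library. The length-weighted FPKM and the earlier grouping were added after the values were seen.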

Additional observations from a re-analysis of the deposited data

How the results depend on the processing

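0 members were called under the main setting and all 19 alternatives, by limma. Among all genes tested, 3 were called as deposited. With factors over all tested genes, with TPM and with a minimum mean of 10 it was 1 each, and otherwise 0. The count of 0 members therefore carries little weight. At an unadjusted p under 0.05 at most 2 members were held, with annotated transcripts alone, where 137 of 6706 genes were higher and 132 lower. With 3 libraries a group and partial transcripts in the sums, small changes of low genes were not detectable, and the limit was wider than that. Even DNAJB1, with a log2 fold change of 2.51, had an adjusted p of 0.151 in limma under the main setting. A change of that size or smaller in a member could thus have been missed. DNAJB1 passed at a minimum mean of 10, where fewer genes were tested, with 2.51 and an adjusted p of 0.0489 in limma. It was the 1 gene called among the 2694 tested there, and so alone among the cytosolic chaperones. The median log2 fold change of the members was 0.71 from FPKM as deposited, 0.24 with factors over all tested genes and 0.16 with annotated transcripts alone, and the median of all genes moved from -0.25 to 0.44, 0.01 and 0.00. Members minus cytosolic chaperones was -0.11 with annotated transcripts alone. The number of members at the smallest exact p was 2, against 0 as deposited and 1 length-weighted. This p means that the groups do not overlap. Of all genes 1.70% were higher and 5.21% lower in this way, 3.79% and 2.21% as deposited, and 1.28% and 5.45% length-weighted. Leaving out a library gave medians of -0.12 to -0.02, differences between the lists of -0.46 to -0.33 and XBP1 shares of 0 to 23.5 percentage points. The cause of the other shifts was not tested.

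Signs turned as follows (log2). As deposited and with factors over all tested genes: HSPA5 0.66 and 0.16, HYOU1 0.69 and 0.25, CANX 0.72 and 0.20, PDIA4 0.76 and 0.24, PDIA6 0.55 and 0.023, XBP1 0.67 and 0.15, HSPA4 0.71 and 0.20, HSP90AB1 0.85 and 0.32, STIP1 0.53 and 0.015. With TPM: HYOU1 0.094, CANX 0.033, PDIA4 0.070, HSPA4 0.039, HSP90AB1 0.15. With annotated transcripts alone: HSP90B1 -0.88, PDIA6 1.09, CANX 2.08, HYOU1 0.23, PDIA4 0.060, HSPA4 0.38, HSPH1 -0.27, DNAJB1 -0.0011, STIP1 0.32. Length-weighted: HYOU1 0.022, CALR -0.0083, CANX 0.022, HSP90AB1 0.080. With the earlier grouping HSP90B1 was -0.89, with the factor above 50 FPKM CALR was -0.015, and with the strandless term HYOU1 was 0.086. Leaving out a library gave HYOU1 -0.25 to 0.16, DNAJB9 -0.0021 to 0.14, CALR -0.080 to 0.11, PDIA4 -0.21 to 0.073, HERPUD1 -0.32 to 0.29 and HSP90AB1 -0.11 to 0.044.

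The labels do not say whether the replicate numbers pair the samples. Same-numbered deviations from the group means correlated at 0.04, -0.28 and -0.34, and differently numbered ones at -0.28 to 0.36. Deviations within so few libraries depend on each other, so these values cannot show whether the samples were paired. With the replicate block 0 members were called, the median was -0.06 and the difference between the lists -0.40.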
